A study of Mus musculus with 9 samples.

Results

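The immunity-related GTPases (IRG proteins) are large GTPases that mouse cells make in response to interferon. Members chosen by gene symbol were Iigp1, Irgm1, Irgm2, Igtp, Tgtp1, Tgtp2 and Ifi47. The family was picked on results of these data, namely lower values of its genes in libraries from rAREG-treated mice than in vehicle libraries, so the difference between these groups is given below as a description and supports nothing. Of the 7 symbols, 5 had a row among the 15080 genes of the deposited table, and all 5 passed the filter on low counts that left 11636 genes to test. Tgtp1 and Tgtp2 were not analysed here. Every library was made from thymic epithelial cells (TEC), the epithelium in which T cells mature, sorted in bulk from thymi of young male wild-type mice. In 5 libraries the mice had been given 1 µg of recombinant amphiregulin (rAREG), which signals through the EGF receptor, by injection into the thymus 10 days earlier. In 4 libraries they had been given the PBS vehicle in the same way. MARS-seq was used, in which unique molecular identifiers (UMIs) count RNA molecules at their 3′ ends.

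IRG proteins guard cells against microbes that live in vacuoles. Interferon-γ switches their genes on, in part through IRF1. The proteins fall into 2 classes by a residue of the nucleotide-binding loop. The GKS class (Iigp1, Ifi47 and the Tgtp proteins) is thought to load onto the vacuole of the parasite Toxoplasma and to break it open. The GMS class (Irgm1, Irgm2 and Igtp) sits on the cell's own membranes and holds the GKS proteins inactive there. In the thymus, medullary TEC show interferon-dependent gene expression even without infection, and interferons made within the organ shape both TEC and thymocytes.

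The promoters are shown because 4 of the IRG genes carry the same pair of interferon-response motifs in the same arrangement. Searched on both strands were the gamma-activated site (GAS), an element of genes that answer to interferon-γ (letters TTCNNNGAA), and the interferon-stimulated response element (ISRE), to which IRF proteins bind (letters GAAANNGAAA). The windows were the 250 bases before the RefSeq start of each gene (GRCm38.p6), which were at hand for 6 of the 7 members, 4 of them with a row in the table. The windows of Irgm1, Irgm2 and Tgtp1 lie inside the GENCODE models of these genes. For them, what is found or missing holds for the RefSeq start only. Igtp, Irgm2, Tgtp1 and Tgtp2 each held 1 GAS followed, after a gap of 2 bases, by 1 ISRE. In the stretches below, which are written from 5′ to 3′ on the strand of the gene, capitals mark these motifs, and the Igtp stretch lies at chr11:58199497-58199541 on the plus strand, that of Irgm2 at chr11:58214888-58214932 on the plus strand, that of Tgtp1 at chr11:48992304-48992348 on the minus strand and that of Tgtp2 at chr11:49064263-49064307 on the minus strand. The Irgm1 stretch, at chr11:48871425-48871464 on the minus strand, held 2 ISREs that share bases and no GAS.
Igtp: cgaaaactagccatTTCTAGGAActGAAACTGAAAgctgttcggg
Irgm2: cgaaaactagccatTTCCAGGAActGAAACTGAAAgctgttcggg
Tgtp1: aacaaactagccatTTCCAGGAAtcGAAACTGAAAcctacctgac
Tgtp2: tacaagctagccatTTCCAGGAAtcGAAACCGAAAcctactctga
Irgm1: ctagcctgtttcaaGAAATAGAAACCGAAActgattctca

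Of all 32851 promoter windows of that length, 7.02% held a GAS and 2.98% an ISRE. Only 5 windows, or 0.0152%, held a GAS followed by an ISRE at a gap of 2 bases, a spacing chosen after the promoters were seen. These were Igtp, Irgm2, Tgtp1, Tgtp2 and Gm12185, a further IRG gene whose model shares bases with that of Tgtp1. The longest run of identical bases was 55 between the Igtp and Irgm2 windows and 27 between the Tgtp1 and Tgtp2 windows, so these sequences are related copies and not independent cases. The Ifi47 window held neither motif, which says only that these letters are not in that window.

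Irgm1 and Iigp1 made up most of the molecules counted for the 5 members with a row. Levels are in CPM, which are UMI counts relative to the TMM-scaled size of the library, and since each molecule is counted once at its 3′ end they are not divided by length. In vehicle libraries the mean was 575 ± 44.9 CPM for Irgm1 (SD, n = 4), 539 ± 76.9 for Iigp1, 207 ± 14.4 for Ifi47, 158 ± 26.0 for Igtp and 49.1 ± 6.80 for Irgm2. Irgm1 and Iigp1 did not differ beyond their spread, each being the higher in 2 of 4 vehicle libraries. Ifi47 exceeded Igtp in 4 of 4 libraries although the ranges of the 2 genes overlapped. Iigp1 stood clear of Ifi47, 2.61-fold higher, and Igtp clear of Irgm2, 3.21-fold higher, with no overlap of libraries. The order of the means was the same in the rAREG group.

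**Figure D1:**
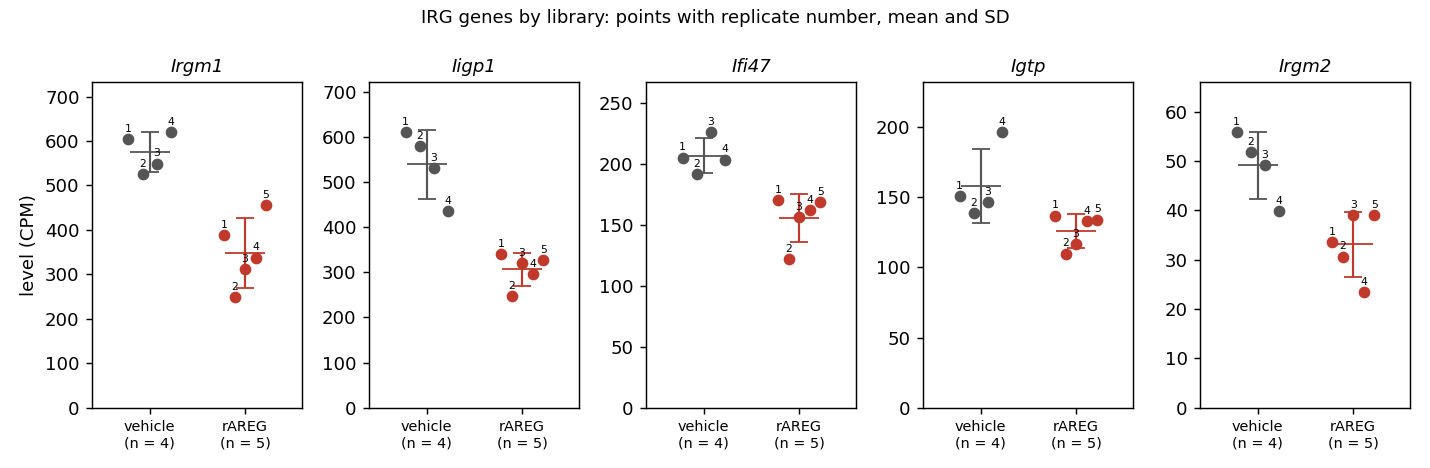
Level of each IRG gene in CPM (y axis, linear and starting at 0, with its own scale in each panel) in every library of the vehicle and rAREG groups; points carry the replicate number, and bars give the mean and SD. For all 5 genes each rAREG library lies below each vehicle library, by a wide margin for Iigp1 and by a narrow one for Igtp and Irgm2.

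Irgm1, the GMS protein needed for resistance to mycobacteria in mice, was at 605, 526, 549 and 620 CPM in vehicle replicates 1 to 4. In rAREG replicates 1 to 5 it was at 388, 248, 313, 338 and 456 CPM. The groups did not overlap, rAREG replicate 2 was the lowest library and rAREG replicate 5 the closest to the vehicle range. Its log2 fold change, rAREG over vehicle, was −0.72 ± 0.137 (SE), which is 1.65-fold lower. GENCODE M21 (GRCm38) places the gene on chromosome 11, from 48861968 to 48871683 on the minus strand; the submitters' processing notes give the same build under the name mm10.

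Irgm2, another GMS regulator, was the least abundant, at 55.9, 51.7, 49.2 and 39.8 CPM in vehicle replicates 1 to 4. It was at 33.5, 30.6, 39.0, 23.4 and 39.0 CPM in rAREG replicates 1 to 5. The groups almost touched, with vehicle replicate 4 at 39.8 CPM just above the 2 rAREG libraries at 39.0 CPM. The log2 fold change was −0.57 ± 0.158 (SE), from counts of 46 to 111 UMIs per library.

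Igtp, also called Irgm3, is the GMS protein that mice need to survive Toxoplasma. It was at 150, 139, 146 and 196 CPM in vehicle replicates 1 to 4 and at 137, 110, 116, 133 and 134 CPM in rAREG replicates 1 to 5. Vehicle replicate 4 was far above the other vehicle libraries, and vehicle replicate 2 lay just above rAREG replicate 1. The log2 fold change, −0.33 ± 0.116 (SE), was the smallest of the 5. Igtp lies on chromosome 11 from 58199556 to 58207591 and Irgm2 from 58199618 to 58222782. The GENCODE models of Igtp and Irgm2 overlap by 7974 bases on the same strand, but their exons share 162 bases and none within the last 500 bases of either gene, where 3′ tags fall.

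Iigp1, also called Irga6, is the best studied GKS effector. It was at 611, 580, 530 and 435 CPM in vehicle replicates 1 to 4 and at 341, 247, 321, 297 and 327 CPM in rAREG replicates 1 to 5. The gap between the groups was wide, with vehicle replicate 4 the lowest of its group. The log2 fold change was −0.82 ± 0.117 (SE), 1.76-fold lower and the largest of the 5. Iigp1 lies apart from the other members, on chromosome 18 from 60376027 to 60392634.

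Ifi47, also called Irgd, is a GKS protein whose role is less settled. It was at 205, 192, 226 and 204 CPM in vehicle replicates 1 to 4 and at 170, 122, 157, 162 and 169 CPM in rAREG replicates 1 to 5. The groups did not overlap, and rAREG replicate 2 was well below the rest of its group. The log2 fold change was −0.41 ± 0.109 (SE). It lies on chromosome 11 from 49076587 to 49096974, inside the longer model of the odorant receptor gene Olfr56, with which it shares 111 exonic bases and none of its last 500.

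Counts were fitted for all 11636 genes by edgeR's quasi-likelihood test, and a gene is said to have risen or fallen where its Benjamini-Hochberg adjusted p was under 0.05. In that fit 2 of the 5 members fell, Iigp1 and Irgm1, and Irgm2, Igtp and Ifi47 did not pass; of all genes tested, 0.490% fell. In all 5 every rAREG library lay below every vehicle library, as it did in 2.44% of the genes tested. The median log2 fold change was −0.57 over the 5 members and −0.0054 over all genes. Because the family was chosen with this difference known, nothing is read from these shares. The authors' deposited table, which gives PBS over AREG, has log2 fold changes of 0.33 to 0.81 for these 5 genes. Its adjusted p (DESeq2) was under 0.05 for Iigp1 and Irgm1, and 0.062 for Ifi47, 0.13 for Irgm2 and 0.32 for Igtp. The call of Irgm1 was lost without vehicle replicate 1 or rAREG replicate 4 (edgeR, adjusted p = 0.076 and 0.060), whereas Iigp1 passed without any 1 library.

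The 5 members together amounted to 1528 ± 66.6 CPM in vehicle (SD, n = 4) and 970 ± 141 CPM in rAREG libraries (SD, n = 5). Within it the members' shares were uneven. Ifi47 made up 12.6% to 15.1% of the family's UMIs in vehicle and 15.0% to 17.0% in rAREG libraries, and Igtp 9.25% to 13.1% and 11.9% to 14.5%. Irgm1 made up 35.3% to 41.5% and 32.8% to 40.6%. The summed GKS genes Iigp1 and Ifi47 stood to the summed GMS genes at a ratio of 0.962 ± 0.147 in vehicle (SD, n = 4) and 0.920 ± 0.0848 in rAREG libraries (SD, n = 5), a difference smaller than the spread within either group. The GKS sum lacks Tgtp1 and Tgtp2, which were not analysed, so the ratio does not compare the whole classes. The 2 lowest ratios, 0.746 and 0.787, were those of vehicle replicate 4 and rAREG replicate 5, in which Irgm1 held its largest shares.

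The members did not vary as a block from library to library once the group means were removed. Over the 9 libraries, Pearson's r of the deviations of log2 CPM ranged from −0.42 to 0.78 among the 10 pairs, with a mean of 0.33 and 8 positive. Irgm1 and Ifi47 were the most alike (r = 0.78), followed by Irgm1 and Igtp (0.68) and Iigp1 and Irgm2 (0.63). Igtp and Irgm2, neighbours with nearly the same promoter stretch, went most apart (−0.42). For Irgm2, counting error alone gives a coefficient of variation of 10.3% in vehicle and 12.6% in rAREG libraries, beside 13.8% and 19.7% observed. A link between promoter likeness and this r was not tested. In vehicle replicate 4, Igtp was 0.33 above its group mean in log2 CPM while Iigp1 and Irgm2 were at −0.30 and −0.29. In rAREG replicate 2 all 5 members were below their group means, with deviations of −0.087 for Irgm2 to −0.46 for Irgm1. Without that library the mean r over the pairs was 0.068, and without vehicle replicate 4 it was 0.56, so single libraries set this value. These are descriptions over few libraries, and all genes of a library share its sequencing depth and scaling.

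**Figure D2:**
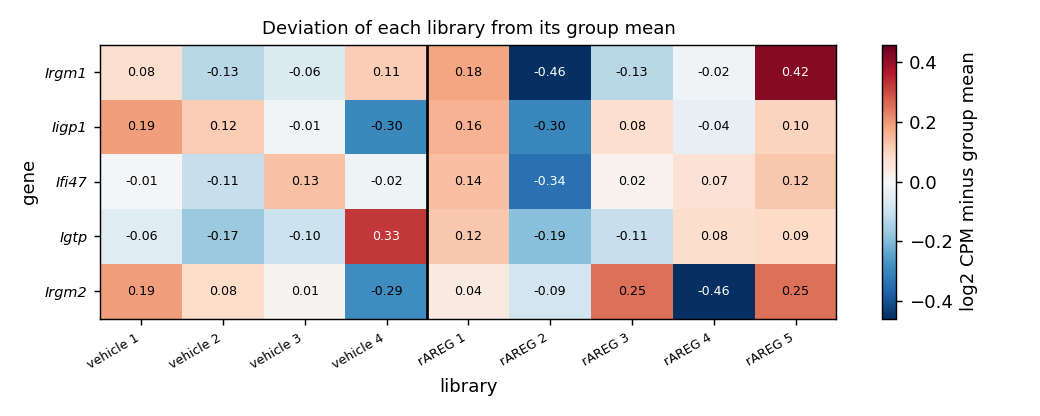
Deviation of log2 CPM from the group mean (colour and printed number) for each IRG gene (rows) in each library (columns), with a line between vehicle and rAREG libraries. In rAREG 2 all 5 genes are below their group mean, while in vehicle 4 Igtp is 0.33 above and Iigp1 and Irgm2 stand at −0.30 and −0.29.

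By the same measure, the genes most like the mean of the members' standardised deviations, among 9336 other genes with a mean of at least 10 CPM, were Fam214a and Meox1 (both r = 0.99), Rgmb and Slc22a21 (both 0.96) and Egfl7 (0.94). These are the extremes of many genes over 9 libraries, and none of them passed in the comparison of the groups. This r was also taken for 17 genes, the 13 that passed in the lists below together with Irf8, Irf9, Ifngr1 and Ifngr2. Of these 17, 10 had a positive r. The highest were Ifit1 (0.88, rank 21), Rtp4 (0.76), Gbp2 (0.74), Gm4841 (0.70) and Irf1 (0.65). The lowest were Il27 (−0.75), Ifngr2 (−0.47), Nos2 (−0.44), Gbp5 (−0.31) and Irf9 (−0.28), and Ifit3 was at 0.23.

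Among further IRG genes, Gm4841 fell after rAREG. Of 22 symbols listed, 7 had a row and 5 were tested, of which 1 fell, none rose and 4 did not pass, with a median log2 fold change of −0.69. Gm4841, a close relative of Iigp1, was at 106, 134, 102 and 107 CPM in vehicle replicates 1 to 4 and at 73.5, 54.3, 65.4, 67.6 and 86.4 CPM in rAREG replicates 1 to 5. The groups did not overlap, and it fell by 0.69 ± 0.129 in log2 (SE; edgeR, adjusted p = 0.016), a call lost without rAREG replicate 2 or vehicle replicate 2. Gm12250, which GENCODE lists as a processed pseudogene next to Igtp, was at −0.76 ± 0.203 (edgeR, adjusted p = 0.071). Its groups did not overlap, and its counts were 18 to 54 UMIs. The RefSeq start of Gm12250 lies upstream of that GENCODE model, and the promoter window before this start held 1 GAS and 2 ISREs. Whether Gm12250 makes a protein was not tested, so the GENCODE label is given only as listed. Gm4951 was at −0.72 ± 0.276 (adjusted p = 0.24), F830016B08Rik at −0.45 ± 0.248 (0.45) and the distant relative Irgq at −0.18 ± 0.162 (0.68). Reads that match both Iigp1 and its relatives could be split between them, and the treatment of such reads is not stated in what was used here, nor is the use of strand. Summed with Gm4841 and Gm4951, Iigp1 still passed.

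Guanylate-binding proteins (GBPs), larger GTPases that act beside the IRG proteins at vacuoles, included the gene with the smallest p of all these lists. Of 8 tested, 2 fell, Gbp2 and Gbp5, and 6 did not pass, with a median of −0.45. Gbp2 lay at 265 to 274 CPM in the vehicle libraries and at 118 to 155 CPM in the rAREG libraries, so that a wide gap parted the groups, and it fell by 1.01 ± 0.101 in log2 (SE; edgeR, adjusted p = 3.2e-05). Gbp5, which takes part in inflammasome activation, lay at 82.4 to 92.5 CPM in vehicle and at 54.2 to 64.9 CPM in rAREG libraries (−0.55 ± 0.108, adjusted p = 0.019). Gbp4 and Gbp8 were at 0.12 ± 0.155 and 0.15 ± 0.100 and did not pass.

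**Figure D3:**
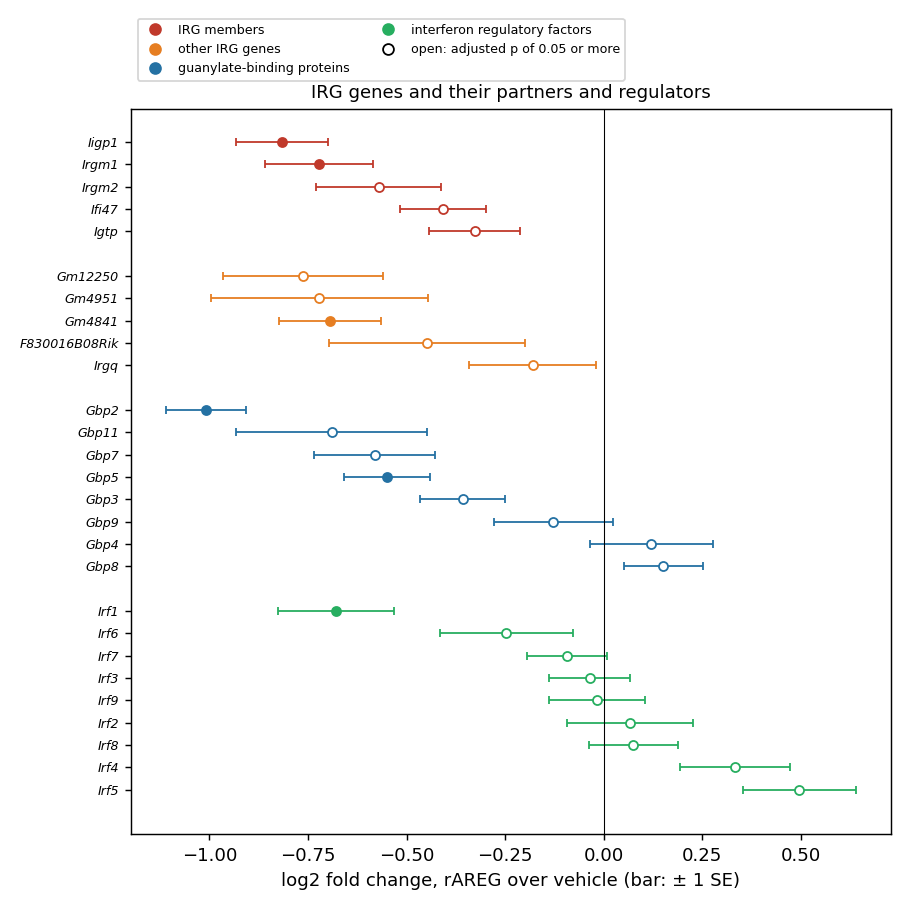
Log2 fold change, rAREG over vehicle, with 1 SE (x axis) for each tested gene (y axis) of the IRG family and of 3 lists of related genes; filled points had an adjusted p under 0.05. Filled among these are Iigp1, Irgm1, Gm4841, Gbp2, Gbp5 and Irf1, all to the left of 0.

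Upstream of the family, interferon receptors and JAK-STAT components showed no call: of 16 tested by edgeR, none passed (1 at an unadjusted p under 0.05, and none by DESeq2 or limma), and their median log2 fold change was −0.12. The interferon-γ receptor genes Ifngr1 and Ifngr2 were at −0.079 ± 0.129 and 0.074 ± 0.123 (SE; edgeR, adjusted p = 0.85 for both). Ifng itself was counted 1 to 11 times per library in both groups and was not tested. Of this list, Socs3, a feedback inhibitor of cytokine receptors, was the most abundant gene, at −0.53 ± 0.193 (adjusted p = 0.25).

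Of 9 interferon regulatory factors, 1 fell and 8 did not pass. Irf1, a factor that drives IRG genes, was at 932, 973, 763 and 969 CPM in vehicle replicates 1 to 4. It was at 575, 448, 454, 565 and 796 CPM in rAREG replicates 1 to 5, so rAREG replicate 5 lay within the vehicle range. It fell by 0.68 ± 0.148 in log2 (SE; edgeR, adjusted p = 0.037), but passed in only 2 of the 9 fits that left out 1 library. The 2 were those without vehicle replicate 3 and without rAREG replicate 5; in the others the adjusted p by edgeR reached 0.15. Irf8 and Irf9 were at 0.075 ± 0.113 and −0.017 ± 0.121 (adjusted p = 0.83 and 0.97).

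Among the cytokine genes of the interferon axis, 1 of 6 tested rose and 5 did not pass. Il27, a cytokine subunit, was at 15.7 ± 1.76 CPM in vehicle (SD, n = 4) and at 26.3 ± 3.78 CPM in rAREG libraries (SD, n = 5), a rise by 0.75 ± 0.179 in log2 (SE; edgeR, adjusted p = 0.044). The interferon-λ genes Ifnl2 and Ifnl3, named after their values were seen, had log2 fold changes of 0.34 ± 0.452 and 1.22 ± 0.484 (SE), neither past the threshold.

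Among other targets of type II interferon, 2 of 17 tested fell, 1 rose and 14 did not pass, with a median log2 fold change of 0.066. Their sum, to which Cxcl10 gave 4189 ± 605 CPM in vehicle libraries (SD, n = 4), was 6295 to 7872 CPM in vehicle and 4582 to 6006 CPM in rAREG libraries, lower in every one of the latter. Cxcl10 alone lay at 3562 to 4958 CPM in vehicle and 2055 to 3320 CPM in rAREG libraries. Without Cxcl10 the sums of the groups overlap, so their separation is that of this gene. Cd274, for the checkpoint ligand PD-L1, went from 141 ± 20.6 CPM (SD, n = 4) to 91.6 ± 13.9 (SD, n = 5; edgeR, adjusted p = 0.019). Cxcl10, a chemokine, fell by 0.61 ± 0.131 in log2 (adjusted p = 0.030), whereas Nos2, the inducible nitric oxide synthase, rose by 0.67 ± 0.142 (adjusted p = 0.024). The immunoproteasome gene Psmb8 and the peptide transporter gene Tap1, also induced by interferon-γ, were at 0.097 ± 0.0958 and −0.059 ± 0.0942; they were named after their values were seen. Of 21 targets of type I and III interferon, 5 fell, none rose and 16 did not pass, with a median of −0.32. The 3 with the smallest p were Ifit1 (−0.89 ± 0.114), Ifit3 (−0.87 ± 0.129) and Rtp4 (−0.66 ± 0.118), with edgeR's adjusted p of 0.00081, 0.0029 and 0.012.

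The machinery that IRG proteins work with showed no call by edgeR. Of 15 genes, most of them for ATG8 proteins and their conjugation, which bring IRG and GBP proteins onto vacuoles, none passed by edgeR, DESeq2 or limma (0 at an unadjusted p under 0.05). Becn1 and Ulk1 on this list are autophagy genes outside ATG8 conjugation. The median was 0.024, and Gabarap, the most abundant, was at 0.030 ± 0.0983. Of 9 ubiquitin adaptors and ligases none passed by any of these tools (2 at an unadjusted p under 0.05), although all 9 were negative, with a median of −0.23 and Sqstm1, for the adaptor p62, at −0.23 ± 0.127 (adjusted p = 0.44). In all, 13 of 106 genes tested over the 9 lists passed, 11 lower and 2 higher, or 12.3%, against 1.05% of all genes tested in either direction. Without 1 library the count was 4 (rAREG replicate 2), 5 (vehicle replicate 1), 7 (vehicle replicate 2), 8 (rAREG replicate 1, rAREG replicate 4 or vehicle replicate 3), 9 (rAREG replicate 3), 11 (vehicle replicate 4) or 12 (rAREG replicate 5). Calls over all genes moved too, from 122 to 18 without vehicle replicate 1, 28 without rAREG replicate 2 and 43 without vehicle replicate 2, and over the 9 fits they ranged from 18 to 230. Gbp2, Ifit1 and Ifit3 passed in 9 of these 9 fits, Rtp4 in 8, Cd274 and Gm4841 in 7, Gbp5 and Eif2ak2 in 6, Cxcl10 and Nos2 in 3, Il27 and Irf1 in 2 and Mx2 in 0. These lists hold many interferon targets and were drawn up with earlier results of these data known.

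**Figure D4:**
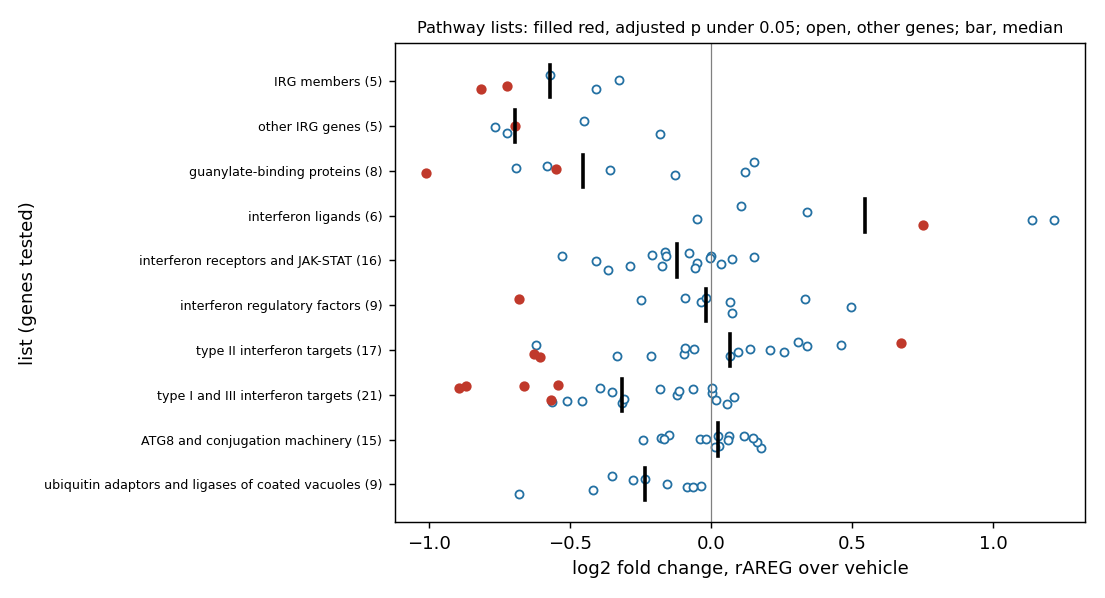
Log2 fold change, rAREG over vehicle (x axis), of every tested gene in the IRG family and in 9 lists (y axis, number of genes tested in brackets); red points had an adjusted p under 0.05 and bars mark the list median. The IRG genes and other IRG genes all lie left of 0, while the targets of type II interferon lie on both sides around a median of 0.066.

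Library totals were 1523246 to 2159115 UMIs and overlapped between the groups, and 3 counts equalled 1.39 to 1.94 CPM. The TEC label was met: all 14 TEC markers had a row, 13 of them at 10 CPM or more in every library. Their sum was 26174 to 33957 CPM. Most of that sum came from Cd74 and H2-Aa, with means of 10028 and 8606 CPM in vehicle libraries. Epcam, Krt8 and Krt5 were at 216, 1443 and 2173 CPM there. The labels do not tie libraries to single mice, and p-values therefore reflect the spread between these libraries alone, which may be technical. In bulk samples, fewer cells of a type and less RNA per cell cannot be told apart. The 11 thymocyte markers with a row summed to 64.5 to 121 CPM in vehicle and 69.6 to 138 in rAREG libraries. Fibroblast markers, all 9 with a row and Pdgfra and Col1a1 at 0 in some libraries, summed to 298 to 905 and 257 to 550 CPM. Of 5 tested, 4 had negative values, with a median log2 fold change of −0.044, and 0 passed by edgeR. Endothelial markers, all 7 with a row, summed to 64.5 to 95.2 and 44.8 to 81.3 CPM. All 5 tested had negative values, with a median of −0.33, and 0 passed by edgeR. Macrophage markers, 11 of 12 with a row, summed to 364 to 517 and 451 to 640 CPM, and 0 of 9 tested passed by edgeR, DESeq2 or limma (2 had an unadjusted p under 0.05). Dendritic cell markers, 8 of 12 with a row and Itgax at 0 in some libraries, summed to 99.3 to 114 and 115 to 162 CPM, higher in every rAREG library, with 0 of 6 passing (2 at an unadjusted p under 0.05). Of 11 tested genes of the medullary TEC stage that expresses Aire, 5 rose, Csn2, Aire, Fezf2, Relb and Ccl17. The mean log2 CPM of these 11 was 6.75 to 7.30 in vehicle and 7.51 to 7.85 in rAREG libraries, so this score parted the groups completely. Neutrophil markers, 6 of 7 with a row and Cxcr2 at 0 in some libraries, summed to 446 to 1338 and 467 to 822 CPM. Of 4 tested, 1 rose, Ly6g, by 1.25 ± 0.213 in log2 (SE, edgeR, adjusted p = 0.0088). Mpo was at 0.39 ± 0.220 and the more abundant S100a8 and S100a9 at −0.18 ± 0.293 and −0.75 ± 0.439, without passing. Csf3r and Cxcr2, not tested, had lower means in rAREG than in vehicle libraries (1.87 against 5.11 and 0.93 against 2.89 CPM). Of 19 genes of the response to dissociation, 16 had negative values, with a median log2 fold change of −0.42, and 1 fell by edgeR, Egr1 (5 passed by DESeq2 and 0 by limma). Their mean log2 CPM was 10.5 to 10.9 in vehicle and 9.97 to 10.7 in rAREG libraries. With the score of macrophage and dendritic cell genes as a covariate, or with that of the Aire stage, no member passed and the median log2 fold change of the members was −0.79 and −0.50; as both scores part the groups, they and the treatment cannot be told apart. With the dissociation score 1 member passed, Iigp1, at −0.79 ± 0.151 (SE), while Irgm1 was at −0.44 ± 0.138, Igtp at −0.13 ± 0.139 and Irf1 at −0.35 ± 0.134 (adjusted p by edgeR = 0.31 for Irf1). Over all genes, 4 passed with the score of macrophage and dendritic cell genes, 38 with the dissociation score and 0 with the Aire-stage score, against 122 without a score. Which share of the members' difference goes with any of these scores was not tested.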

How the data were processed

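TEC were sorted into lysis buffer and 3′-end libraries made by MARS-seq, per the labels' protocols. Named without roles in the submitters' processing notes are the build mm10 and the tools STAR 2.5.2b, HTSeq, cutadapt, bcl2fastq and DESeq2. The deposited table held raw UMI counts, which were used for every test. It also held the authors' normalised values, a signal equal to the counts over size factors of 0.824 to 1.15 (multiplied back, 100% equalled the raw counts within 1e-06, so a count fit on them is the same fit). Regularised log2 values were not used. The authors' deposited log2 fold changes and p-values served only as a check of the members.

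Groups came from the titles. Counts were fitted in R 4.3.3 with edgeR 4.0.16 (TMM, filterByExpr, robust quasi-likelihood), with Benjamini-Hochberg adjustment over 11636 genes; 3444 genes fell to the filter. Over all genes, 122 passed, 57 of them lower in rAREG. The SE is the log2 fold change over the square root of F. CPM uses TMM-scaled totals, and log2 CPM a prior count of 2. Fits were tested on simulated counts. DESeq2 1.42.0 and limma 3.58.1 gave alternatives. Positions come from GENCODE M21 and promoters from RefSeq, GRCm38.p6.

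Members and lists were chosen with earlier results of these data known. Named were the members, up to 3 genes that passed per list or else its most abundant, 5 genes most like the members, and the regulators and receptors Irf1, Irf8, Irf9, Ifng, Ifngr1 and Ifngr2; other names were added after their values were seen. One further regulator is not reported here. No pair of libraries agreed within counting noise (chi-square of at least 2.54 per degree of freedom). Limits from counts cover counting error only.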

Additional observations from a re-analysis of the deposited data

Results flagged for a closer look

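Over 70 groups of library values, 3 held a library set apart from the rest of its group by Dixon's test, where chance flags about 1 in 20. Ifi47 in rAREG replicate 2 was at 122 CPM, and the next library of that group was at 157 CPM. The summed IRG level in vehicle replicate 1 was 1627 CPM, and the next vehicle library was at 1501 CPM. Gm4841 in vehicle replicate 2 was at 134 CPM, and the next vehicle library was at 107 CPM.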

How the results depend on the processing

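The 5 members kept a negative log2 fold change in all 24 alternative fits, with medians of −0.79 to −0.44, though single members came near 0: Irgm2 was at −0.11 ± 0.307 (SE) with the Aire-stage score and at −0.19 ± 0.327 with the macrophage and dendritic cell score, and Igtp at −0.13 ± 0.139 with the dissociation score. The number of members that fell, 2, was 2 or 3 under 3 other scalings (total counts, upper quartile, RLE), a stricter filter or none, limma voom, DESeq2, library size or a thymocyte score as a covariate, and Iigp1 summed with its relatives. DESeq2 added Ifi47 at an adjusted p of 0.040, while the authors' deposited DESeq2 result has it at 0.062. With the macrophage and dendritic cell score the number of members that fell was 0 (median −0.79), with the dissociation score 1, and with the Aire-stage score, chosen after seeing the data, 0. The 13 pathway genes that passed became 4, 2 and 0 with these 3 scores, and the 122 calls over all genes 4, 38 and 0; the cause was not tested. Without 1 library the members that fell numbered 1 to 3, with medians of −0.65 to −0.46, the pathway genes 4 to 12, and the mean r of the members 0.068 to 0.56. With title numbers as a replicate block 4 members and 17 pathway genes passed, while calls over all genes rose from 122 to 308. With library numbers, 2 and 14 passed, beside 165 calls over all genes. A block leaves rAREG replicate 5 (titles) or rAREG replicate 4 (library numbers) without a vehicle partner. With no block, 126 genes passed when rAREG replicate 5 was left out and 54 when rAREG replicate 4 was. Same-numbered libraries correlated at −0.036 to 0.17 and only 3 of 8 (titles) or 1 of 8 (library numbers) best with their own number. Such correlations over all genes, which carry counting noise, cannot decide whether libraries were paired. The main fit used no block, and pairing stays undecided. Gm4951 was at 0.44 with the Aire-stage score, without passing. Summing Tgtp1 with Tgtp2 was not run.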
